A study of Mus musculus with 2 samples.

Results

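Postmitotic Eomes intermediate progenitors were examined in the corticoseptal boundary, the midline tissue between cerebral cortex and septum, of mouse embryos at E16.5, by RNA sequencing of single cells. They were 2099 of the 19630 cells of the series, 891 from wild-type (WT) tissue and 1208 from Tcf4f/f;Emx1Cre tissue (Tcf4 cKO), with 1 library per genotype. A barcode counted as a cell from 3350 UMIs (unique molecular identifiers, tags that let each captured transcript be counted once) and 500 genes upward, if no more than 10% of its UMIs were mitochondrial. Members were chosen by 4 raw counts in the cell itself: at least 3 UMIs of Eomes, at most 1 UMI of Top2a and Mki67 together, and none of Dlx2 or Trp73. Eomes marks the progenitors themselves, Top2a and Mki67 mark dividing cells, Dlx2 marks the GABAergic lineage and Trp73 marks Cajal-Retzius cells. In the cKO, a floxed Tcf4 allele is recombined by Cre under control of Emx1, a gene of dorsal telencephalic progenitors, so that cells of other origin in the same tissue keep the gene. The labels give neither the number nor the sex of the embryos in a library, nor whether the WT embryos carried the floxed allele or Cre, nor which exons of Tcf4 are floxed.

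Intermediate progenitors are the daughters of radial glia that move to the subventricular zone, divide there and give rise to glutamatergic neurons of the cortex. The T-box factor Eomes (Tbr2) defines them. Their passage from glia to neuron runs along a series of bHLH transcription factors, in which Neurog2 acts early and Neurod1, Neurod2 and Neurod6 act later. These proneural factors bind DNA at E-boxes as dimers with E proteins, the family of Tcf3, Tcf4 and Tcf12, and Id proteins hold E proteins away from them. Tcf4 is therefore a partner of the factors that drive these cells forward.

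The WT library held 8964 cells with a median of 9799.5 UMIs, and the cKO library 10666 cells with a median of 8306 UMIs. Members had medians of 9839 UMIs and 3341 genes in WT and of 7824.5 UMIs and 2889.5 genes in cKO, and together held 9301008 and 10493469 UMIs. Mitochondrial transcripts made up a median of 2.91% and 3.34% of their UMIs. The 2 libraries shared 23 cell barcodes, none of them between members. A doublet caller, scrublet, marked 30 WT members (3.37%) and 54 cKO members (4.47%), which were kept. Levels are UMI sums over members scaled to 1000000 UMIs of the members' total (CPM), with exact Poisson intervals. Ratios are cKO over WT with exact conditional binomial intervals, and shares have Clopper-Pearson intervals, each at the 95% level. With 1 library per genotype no test between genotypes was possible, and all intervals cover counting error only. A gene is called higher or lower where it differed by at least 1.5-fold after 5 CPM were added to both levels.

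The 5 marker genes of these cells were all higher in members than in all other cells of the same library. The rule itself set the Eomes level, at 732 CPM against 33.1 CPM in WT and 783 against 38.3 CPM in cKO. Neurog2, the proneural factor of the cortex, stood at 884 CPM in WT members against 75.2 CPM in the other WT cells, and at 928 against 109 CPM in cKO. Neurod4, a bHLH factor of committed progenitors, stood at 75.4 against 5.17 CPM in WT and at 38.8 against 2.69 CPM in cKO. Mfap4, a secreted matrix protein, stood at 292 against 35.6 CPM and at 309 against 38.2 CPM. Sstr2, a somatostatin receptor, stood at 152 against 26.4 CPM and at 165 against 17.2 CPM. In each library the markers outside the rule thus also stood above the other cells. They do not show whether each member had left the cycle, since the rule's limit on cycling covers Top2a and Mki67 alone. These differences follow a choice made on the same counts and are a description.

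**Figure D1:**
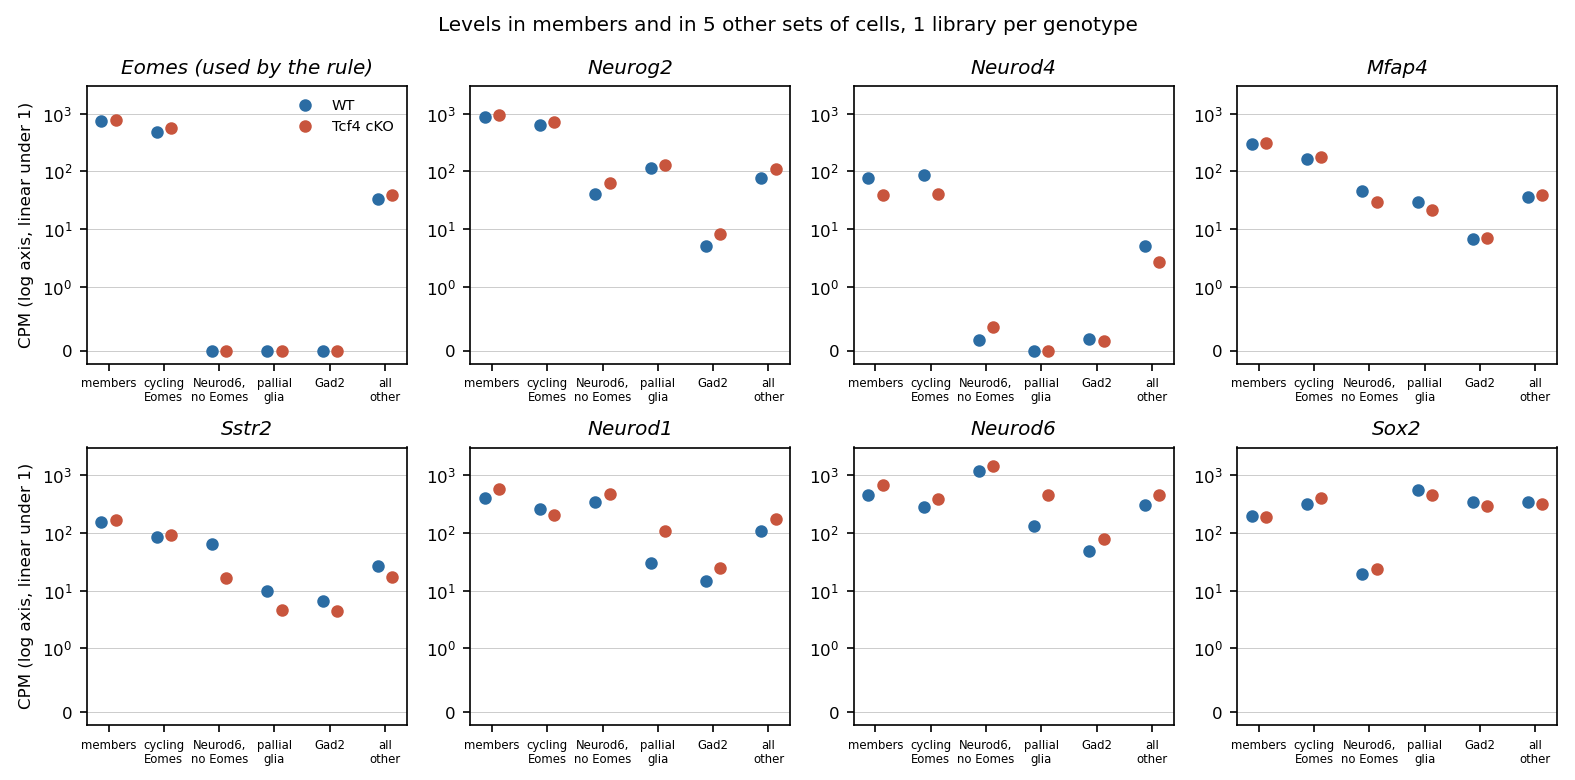
Levels in CPM (vertical log axis, linear under 1) of 8 genes in members and in 5 other sets of cells (horizontal axis), with 1 point per library, WT in blue and Tcf4 cKO in red. Neurog2, Mfap4 and Sstr2 are highest in members in both libraries, while Neurod4 in cKO members (38.8 CPM) lies below its WT level (75.4 CPM).

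Among genes at 50 CPM or more in members, 138 of 3346 in WT (4.12%) and 127 of 3366 in cKO (3.77%) were at least 2-fold higher in members than in the other cells. Outside the rule's own genes, the 15 with the largest difference in both libraries were Neurog2, Mfap4, Kif26b, Sstr2, Slc30a10, Slc17a6, Hs3st1, Mfng, Epha3, Pam, Plcxd2, Mdga1, Nrn1, Emx1 and Rhbdl3. They include Slc17a6, the vesicular glutamate transporter VGLUT2, at 171 against 32.1 CPM in WT. Mfng, a glycosyltransferase that modifies Notch, stood at 116 against 21 CPM in WT, and the ephrin receptor gene Epha3 at 128 against 22.2 CPM. Emx1, whose promoter drives the Cre, stood at 225 against 45.5 CPM. At the other end lay genes of GABAergic neurons and of mitosis: Dlx1 stood at 6.34 CPM in WT members against 194 CPM in the other cells, and Prc1, a protein of the mitotic spindle, at 7.53 against 147 CPM.

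Cells just outside the Eomes limit resembled those just inside it. The 116 WT cells with 2 Eomes UMIs that met the other conditions held Neurog2 at 453 CPM, and the 110 WT members with 3 UMIs held it at 613 CPM. In cKO the 214 cells with 2 UMIs held 535 CPM and the 199 members with 3 UMIs held 638 CPM. Members with 10 or more Eomes UMIs, 237 in WT and 225 in cKO, held Neurog2 at 1054 and 1204 CPM. Over the same range Tubb3, a neuronal tubulin, went from 927 to 405 CPM in WT and from 800 to 396 CPM in cKO, and Neurod1 from 524 to 320 CPM and from 824 to 400 CPM. Members rich in Eomes thus held more Neurog2 and less Tubb3 and Neurod1 in both libraries. Neurod6 differed less in WT, at 479 and 447 CPM, and stood at 764 and 588 CPM in cKO. The raw limit on Eomes also leaned on depth, since median UMIs were 8923.5 at 3 Eomes UMIs and 10512 at 10 or more in WT, and 7137 and 8951 in cKO.

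Marker sums of other cell types lay below those of all other cells in the same library, by little for red cells and Cajal-Retzius cells, and did not move alike between the genotypes. The 9 GABAergic markers summed to 40.7 CPM in WT and 55.9 CPM in cKO members, against 835 and 821 CPM in the other cells, each below its level in free RNA, which was read from droplets of 10 to 100 UMIs. The 5 Cajal-Retzius markers summed to 125 and 105 CPM, against 163 and 144 CPM in the other cells, and the 5 oligodendrocyte progenitor markers to 13.5 and 13.8 CPM. The 6 endothelial and mural markers summed to 6.45 CPM in WT, with Flt1 at 0, and to 21.6 CPM in cKO. Microglial markers, 6 in all, summed to 19.5 and 2.0 CPM. The 5 meningeal markers summed to 1.29 CPM in WT, with Col1a1 and Col3a1 at 0, and to 2.0 CPM in cKO, with Lum at 0. Ependymal and choroid plexus markers, 5 in all with Ccdc153 at 0 in both libraries, summed to 312 and 62.2 CPM, of which Ttr, the transthyretin gene of choroid plexus, made up 303 and 57.9 CPM. The 5 red-cell markers summed to 2537 CPM, with Hbb-y at 0, and to 2235 CPM, against 3327 and 3308 CPM in the other cells, while free RNA held 7486 and 11834 CPM of them. Their part in the differences below was not tested. Of the genes called between genotypes, 6 of the 92 higher ones (Rgs5, Igfbp7, Sparcl1, Gng11, Col4a2 and Cldn5) and 8 of the 87 lower ones (Atf3, Ptgds, Il1a, Tac1, Zfp36, Ccl4, Fgf17 and Ttr) had over 25% of their UMIs in 1 member. No gene among the 30 named below had over 2.86% in 1 member.

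The WT library was 9.94% members (9.33 to 10.6) and the cKO library 11.3% (10.7 to 11.9), a difference of 1.39 percentage points. Of the cells with 3 or more Eomes UMIs, 1191 in WT and 1524 in cKO, the condition on cycling removed 239 and 214, and Dlx2 a further 57 and 98. When every cell was first thinned to 3350 UMIs, 420 WT cells (4.69%) and 621 cKO cells (5.82%) met the rule. With at least 5 Eomes UMIs in place of 3, the difference was 0.223 points, from 670 and 821 cells, and with at least 2 it was 2.098 points, from 1007 and 1422 cells. With 1 library per genotype, a difference in shares cannot be told apart from one in how the tissue was taken.

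Tcf4, the targeted gene (ENSMUSG00000053477, mm10 chromosome 18, 69343356 to 69689079), was lower in cKO members but still present. WT members held 2540 CPM (2508 to 2573) and cKO members 1651 CPM (1627 to 1676), a ratio of 0.650 (0.637 to 0.663). At a common depth of 3350 UMIs, a WT member held a median of 8 Tcf4 UMIs (quartiles 5 and 11) and a cKO member 5 (quartiles 3 and 8). Members with no Tcf4 UMI were rare in both, at 1.46% (0.779 to 2.48) and 1.82% (1.14 to 2.74), so the transcript remained detectable in nearly every cKO member. Libraries of this kind count the 3' ends of transcripts, so these UMIs need not come from the deleted exons and do not measure intact mRNA or protein. The ratio was 0.723 in cycling Eomes cells, 0.671 in Neurod6 cells without Eomes, 0.759 in pallial glia outside the cycle and 0.888 in Gad2 cells. The first of these sets met the rule except for 2 or more UMIs of Top2a and Mki67. The second held at least 3 UMIs of Neurod6, the third at least 3 of the glial transporter gene Slc1a3 and 1 of Emx1, and both met the rule's other conditions with 0 Eomes. Gad2 cells held at least 3 UMIs of Gad2, the GABA synthesis gene, with 0 Eomes.

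Between genotypes, 11111 genes with 50 or more UMIs in members were compared. In cKO members 92 genes (0.828%) were higher and 87 (0.783%) were lower, together 1.61% of those compared, and the median log2 ratio over all of them was -0.02. The 15 named genes with the strongest difference upward were Colec12, BC004004, Pou3f1, Luzp2, Gm28050, Sema5a, Negr1, Apbb2, Neurod2, Ebf1, Epha3, Palmd, Pou3f2, Smarcd3 and Meis2. Downward they were Flrt1, Rprm, Nhlh1, Mcm6, Neurod4, Tesc, Ccnd2, Egr1, Tcf4, Myo10, Cplx2, Cadm3, Dnajc15, Fos and Cotl1. Rank was set by whichever end of the interval lay closer to 1. Most of the members' transcriptome therefore lay within 1.5-fold.

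**Figure D2:**
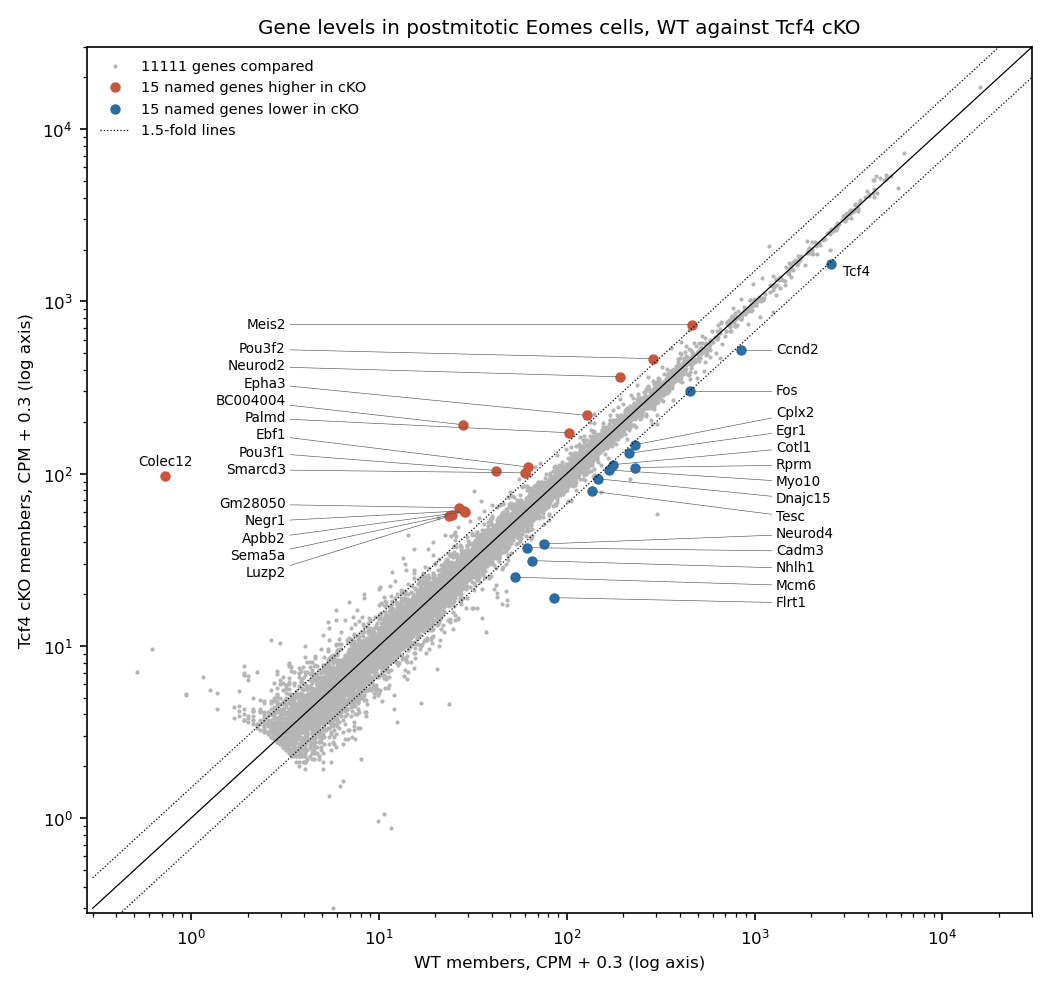
Level of each of 11111 genes in WT members (horizontal) and Tcf4 cKO members (vertical), both in CPM on log axes with the small offset written on them; dotted lines mark 1.5-fold, red and blue points the 30 named genes. Most genes lie along the diagonal, Colec12 stands far above it (0.430 and 96.5 CPM) and Flrt1 below it (85.0 and 18.8 CPM).

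The factors of the proneural series did not move together in cKO members: those of the neuronal end were higher, Neurod4 and Nhlh1 were lower, and the early factor hardly differed. Among 21 proneural factors, E proteins, Id inhibitors and Hes and Hey repressors, 2 were called higher and 4 lower, where 0.828% and 0.783% of all genes were. Their median log2 ratio was 0.07 against -0.02 over all genes. Neurog2 had 884 CPM in the WT and 928 in the cKO, a ratio of 1.05 (1.02 to 1.08). Neurod1 stood at 405 and 584 CPM, short of the call at a ratio of 1.44 (1.38 to 1.501). Neurod2 (ENSMUSG00000038255) was called higher, at 193 and 365 CPM, a ratio of 1.89 (1.79 to 2.0), and so was Neurod6, at 449 and 685 CPM, a ratio of 1.53 (1.47 to 1.58).

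Neurod4 (ENSMUSG00000048015) went the other way, with WT members at 75.4 CPM (69.9 to 81.2) and cKO members at 38.8 CPM (35.1 to 42.7), a ratio of 0.515 (0.454 to 0.582). Nhlh1 (ENSMUSG00000051251), a bHLH factor of newly formed neurons, stood at 65.3 and 31.0 CPM, a ratio of 0.475 (0.413 to 0.544). Its close relative Nhlh2 stood at 64.0 CPM in both libraries, a ratio of 1.00 (0.895 to 1.12). Of the E proteins, Tcf3 had a ratio of 1.06 (0.987 to 1.14) and Tcf12 of 1.13 (1.06 to 1.21), so only Tcf4 of the 3 was called. The Id genes, inhibitors of E proteins, all had ratios below 1: Id2 was called lower, at 218 and 92.4 CPM, a ratio of 0.424 (0.392 to 0.458). Free RNA held more Id2 than the members in both libraries, at 313 and 102 CPM, which kept it off the 30 named genes. Id1 stood at 20.1 and 12.9 CPM, Id3 at 17.8 and 10.6 CPM and Id4 at 43.1 and 37.2 CPM, none of them called.

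The sequence before the start of 3 of these genes is shown because they are bHLH genes that E-protein dimers could bind and that differed between genotypes, Neurod4 and Nhlh1 downward and Neurod6 upward. Neurod2 and Id2 were called too, but their windows overlap an annotated transcript and are not shown. The Neurod2 window held 3 E-boxes and the Id2 window 1. Each is the 250 bases before the transcription start from RefSeq (GRCm38.p6), 5′ to 3′ on the gene's strand, with every E-box (CANNTG, which reads the same class of motif on both strands) in capitals.
Neurod4: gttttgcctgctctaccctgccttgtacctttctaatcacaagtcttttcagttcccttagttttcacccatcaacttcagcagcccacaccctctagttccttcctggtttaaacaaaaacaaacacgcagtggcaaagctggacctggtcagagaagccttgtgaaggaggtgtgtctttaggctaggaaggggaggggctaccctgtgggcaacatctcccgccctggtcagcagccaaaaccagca
Nhlh1: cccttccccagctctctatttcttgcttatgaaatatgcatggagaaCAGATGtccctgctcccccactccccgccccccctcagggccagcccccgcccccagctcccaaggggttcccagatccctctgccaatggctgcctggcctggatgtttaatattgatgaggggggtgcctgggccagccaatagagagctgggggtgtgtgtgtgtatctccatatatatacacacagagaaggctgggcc
Neurod6: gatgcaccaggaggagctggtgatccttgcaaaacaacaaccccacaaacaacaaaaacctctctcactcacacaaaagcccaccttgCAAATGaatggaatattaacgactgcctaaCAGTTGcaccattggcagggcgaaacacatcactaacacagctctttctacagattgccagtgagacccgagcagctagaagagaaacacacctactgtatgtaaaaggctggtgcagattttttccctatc
They lie at chr10:130280255-130280504, chr1:172057597-172057846 and chr6:55681264-55681513, all on the minus strand, outside the annotated transcripts of GENCODE vM21. The Neurod4 window, the upstream one of the gene's starts, held no E-box. Nhlh1 held CAGATG 203 bases before the start, and Neurod6 held CAAATG and CAGTTG 162 and 132 bases before it. CANNTG is common, being present in 66.2% of 32851 RefSeq promoter windows of this length and in 56.1% of those of the genes compared here. It was present in 10 of 16 windows of the named genes that were higher, where 12 of 15 genes matched, and in 4 of 12 windows of the lower ones, where 10 of 15 matched. These are matches of letters and not sites of binding.

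Apart from Neurod4 and Nhlh1, no gene of intermediate progenitor identity was called, though smaller differences ran both ways. Of 26 such genes 25 were compared (Eya2 had too few UMIs). None was called higher and those 2 were lower, where 0.828% and 0.783% of all genes were. The intervals of 10 lay above 1 (40%, against 10.3% of all genes) and of 8 below it (32%, against 13.3%). The median log2 ratio was 0.01. Insm1, a zinc-finger factor that promotes the formation of these progenitors, stood at 310 and 324 CPM. Hes6, an antagonist of Hes1, stood at 224 and 226 CPM, and Mfap4 at 292 and 309 CPM. The antiproliferative gene Btg2 stood at 297 and 270 CPM. The largest downward ratio short of the call belonged to Elavl2, a neuronal RNA-binding protein, at 927 and 740 CPM. With 5 CPM added, the largest upward one belonged to Neurod1, whose levels are given above. Without that addition Neurog1, a gene with few UMIs in members, had a larger upward ratio.

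Components of the Notch pathway, by which progenitors hold their neighbours in the glial state, showed no call in either direction among 19 of 21 genes compared. Over all genes compared, 0.828% were called higher and 0.783% lower, so a list of this length would hold few calls in any case. The median log2 ratio was -0.07. The ligand genes Dll1 and Dll3 stood at 86.7 and 77.5 CPM and at 28.7 and 23.1 CPM. The receptor gene Notch1 stood at 98.3 and 86.6 CPM, and Mib1, the ubiquitin ligase that activates the ligands, at 85.8 and 65.3 CPM, a ratio of 0.761 (0.686 to 0.844). The target Hes5 stood at 40.4 and 46.5 CPM. The log2 ratios of the 19 genes lay between -0.37 and 0.42. The intervals of 6 of them lay below 1 (31.6%, against 13.3% of all genes compared) and of 2 above it (10.53%, against 10.3%).

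Genes of DNA replication lay mostly below their WT levels, by less than the call in most cases. Of 27 S-phase genes compared, 25 had a log2 ratio below 0 (92.6%, against 55.5% of all genes compared) and 22 an interval wholly below 1 (81.5%, against 13.3%). None was called higher and 5 were called lower, where 0.783% of all genes were. The median log2 ratio was -0.31. The lists were chosen with earlier results of these data known, so these shares are a description and not a test. The 5 were Mcm3, Mcm4, Mcm5 and Mcm6, which encode subunits of the replicative helicase, and the chromatin remodeller gene Hells. Mcm6 stood at 52.8 and 24.8 CPM, a ratio of 0.469 (0.402 to 0.547), Mcm5 at 20.6 and 9.62 CPM and Pcna, the sliding clamp, at 65.5 and 47.4 CPM. Ccnd2, the cyclin of the restriction point that cortical progenitors hold at a high level, was called lower as well, at 845 and 519 CPM, a ratio of 0.614 (0.593 to 0.636). Gadd45a, a growth arrest gene, was the other of the 2 called among 19 genes of cycle exit, at 35.2 and 14.2 CPM. Both were lower, where 0.783% of all genes were. The inhibitor Cdkn1c (p57) stood at 302 and 271 CPM. Since the rule allowed 1 UMI of Top2a and Mki67, 95 WT and 101 cKO members held 1. Of 22 G2 and M genes 17 were compared, none was called, and the median log2 ratio was -0.11.

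Radial glia genes, which these cells inherit from their mothers, were called in neither direction among 23, with a median log2 ratio of -0.02. Pax6 stood at 216 and 245 CPM, Sox2 at 199 and 185 CPM and Vim at 734 and 757 CPM. Slc1a3 was among the lower ones at 152 and 112 CPM, a ratio of 0.737 (0.681 to 0.797). Of 22 newborn neuron genes, Neurod2 and Neurod6 were called higher and Cntn2, an axonal adhesion protein, lower at 42.4 and 18.9 CPM. Over all genes compared, 0.828% were called higher and 0.783% lower. The cytoskeletal genes of young neurons stayed close, with Dcx at 547 and 565 CPM, Tubb3 at 578 and 591 CPM and Map2 at 411 and 388 CPM. The median of the list was 0.07.

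Genes of upper-layer and callosal neurons, the cells that send axons through this midline region, lay mostly above their WT levels in cKO members. Of 18 such genes 15 were compared, and 13 had a log2 ratio above 0 (86.7%, against 44.5% of all genes compared). Of the 15, 5 were called higher, where 0.828% of all genes were, and none lower, and the median log2 ratio was 0.46, the highest of the 14 lists. Since this list too was chosen with earlier results of these data known, its shares and rank are a description. Pou3f1 (ENSMUSG00000090125), a POU factor, went from 41.7 CPM (37.7 to 46.1) in WT members to 104 CPM (97.9 to 110.3) in cKO members, a ratio of 2.49 (2.22 to 2.81). Free RNA held it at 52.7 and 53.9 CPM, above the WT members and below the cKO members. Its relative Pou3f2 stood at 287 and 465 CPM, a ratio of 1.62 (1.54 to 1.70), and another member of the family, Pou3f3, at 391 and 425 CPM. Mef2c, an activity-regulated factor, stood at 31.7 and 79.2 CPM. Cux2, a homeobox factor of upper-layer neurons, stood at 6.67 and 17.7 CPM. Below 0 lay Mdga1, at 87.2 and 65.4 CPM, and Cux1, at 133 and 127 CPM.

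Genes of deep-layer and corticofugal neurons had 2 calls higher and 2 lower of 16 compared among 18, where 0.828% and 0.783% of all genes were called. A log2 ratio above 0 was found for 12 (75%, against 44.5% of all genes compared). The intervals of 10 lay above 1 (62.5%, against 10.3%) and of 3 below it (18.8%, against 13.3%). Bcl11b (Ctip2), which specifies subcerebral neurons, stood at 72.1 and 114 CPM, and Lmo3 at 6.99 and 14.5 CPM. Rprm (ENSMUSG00000075334), a p53-linked gene of layer 6 neurons, was lower at 232 CPM (222 to 242) and 108 CPM (102 to 115), a ratio of 0.467 (0.434 to 0.502). Tesc, a calcium-binding protein, was lower at 137 and 78.7 CPM. Fezf2 stood at 149 and 138 CPM and Tbr1, which follows Eomes in the lineage, at 104 and 131 CPM. The median log2 ratio was 0.24.

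Receptors and ligands of migration and axon guidance held some of the largest ratios in both directions. Of 36 genes 35 were compared, 3 were called higher and 3 lower, where 0.828% and 0.783% of all genes were. The median was 0.17. Flrt1 (ENSMUSG00000047787), a leucine-rich adhesion protein of the family that guides migrating cortical neurons, went from 85.0 CPM (79.2 to 91.2) in WT members to 18.8 CPM (16.2 to 21.6) in cKO members, a ratio of 0.221 (0.188 to 0.258). Its relatives Flrt2 and Flrt3 were not called, at 4.19 and 5.34 CPM and at 34.3 and 41.9 CPM. The chemokine receptor gene Cxcr4 was lower at 31.1 and 16.2 CPM, and its ligand Cxcl12 at 7.1 and 2.95 CPM. Sema5a, a transmembrane semaphorin, was higher at 24.1 and 57.5 CPM, a ratio of 2.39 (2.04 to 2.79), Epha3 at 128 and 218 CPM and the adhesion gene Alcam at 36.1 and 60.8 CPM. Dcc, the netrin receptor gene, stood at 367 and 268 CPM and Robo2, a slit receptor gene, at 193 and 269 CPM, neither of them called.

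Of 24 pallial patterning genes 23 were compared and Meis2, a homeobox factor, was called higher at 466 and 732 CPM. Emx1 was called lower at 225 and 147 CPM, a ratio of 0.654 (0.612 to 0.698), and so was Wnt7b at 25.2 and 13.8 CPM. Emx2 stood at 91.7 and 103 CPM and Lhx2, a selector of cortical identity, at 987 and 1257 CPM. Glycolysis and hypoxia genes showed 1 call among 20, Txnip, lower at 47.5 and 20.5 CPM. Immediate early and stress genes showed 3 lower calls among 16 compared of 19, namely Fos at 454 and 300 CPM, Egr1 at 215 and 131 CPM and Atf3, with a median of -0.15. Jun stood at 138 and 147 CPM and Hspa8 at 1705 and 1829 CPM. Beside the calls of each list here, 0.828% of all genes compared were called higher and 0.783% lower.

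**Figure D3:**
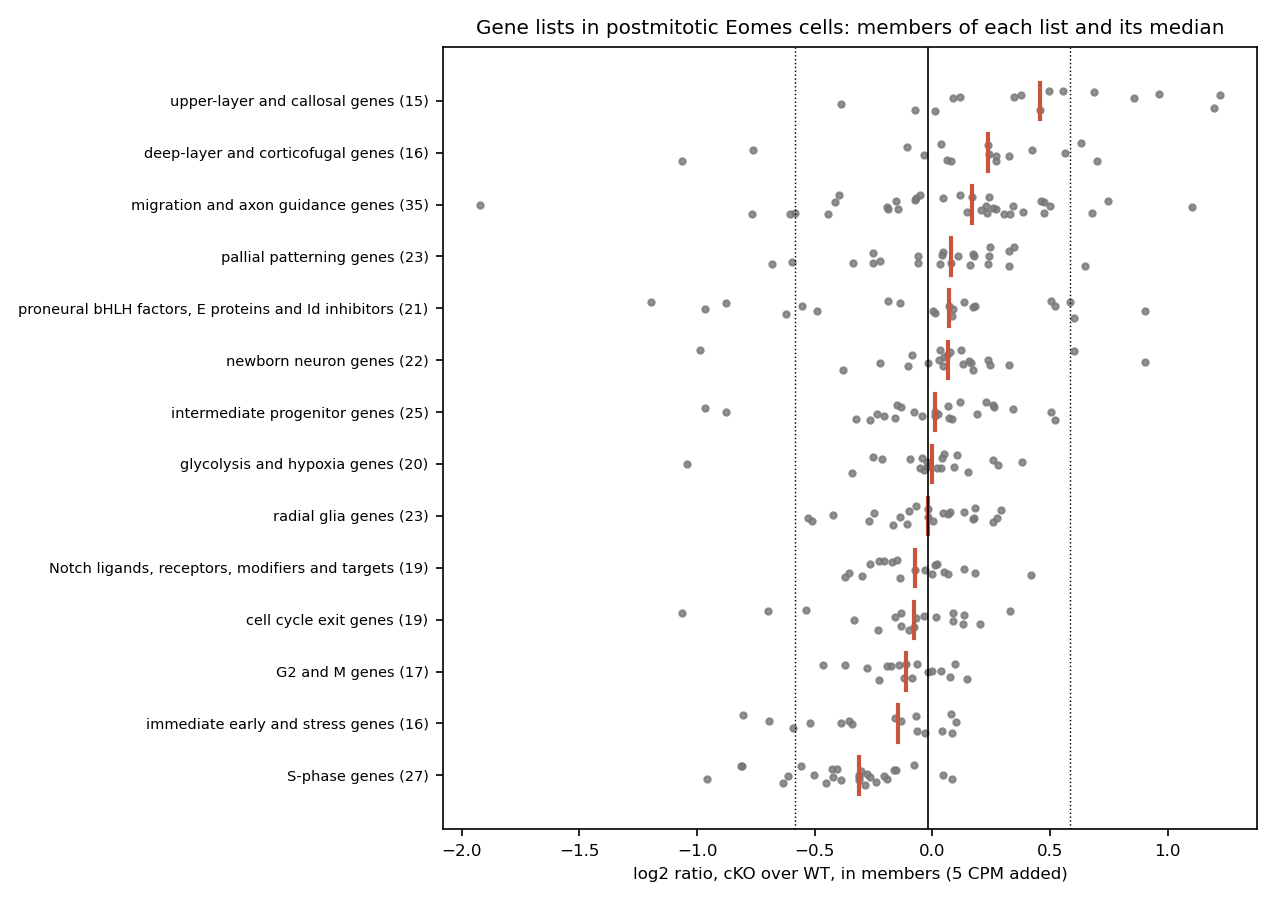
Log2 ratio of Tcf4 cKO over WT in members (horizontal axis, 5 CPM added) for the genes of 14 lists (rows, number compared in brackets); each point is a gene, the red bar the list's median, the solid line the median of all genes and the dotted lines 1.5-fold. The upper-layer and callosal list has the highest median (0.46) and the S-phase list the lowest (-0.31).

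Members spread widely in their content of newborn neuron transcripts. With every cell thinned to 3350 UMIs, the summed UMIs of the 22 newborn neuron genes had a median of 12 in WT members (quartiles 6 and 18) and 14 in cKO members (quartiles 7 and 20). Most of that difference lay in Neurod2 and Neurod6, which were called higher: the other 20 genes had medians of 9 (quartiles 5 and 15) and 10 (quartiles 5 and 15), and means of 11.1 and 11.3 UMIs, while those 2 genes had means of 2.27 and 3.67 UMIs. Cutting all members at 9 and 17 of these UMIs gave a low, a middle and a high group with 364, 282 and 245 WT cells (40.9, 31.7 and 27.5%) and 393, 386 and 429 cKO cells (32.5, 32.0 and 35.5%). These groups are ranges and not cell types, and 492 of the 2099 members lay within 1 UMI of a cut. Because Neurod2 and Neurod6 belong to the score, neither their levels over the groups nor the larger high group in cKO is read as a result.

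Along the groups, Neurog2 stood at 1478, 676 and 214 CPM in WT and at 1614, 904 and 290 CPM in cKO from low to high. Neurod1 ran opposite, at 119, 495 and 740 CPM in WT and at 103, 625 and 1012 CPM in cKO, so that the genotypes lay close in the low group, with a ratio of 0.867 (0.754 to 0.996), and apart in the high group, with a ratio of 1.37 (1.29 to 1.45). Neurod4 was lowest in the high group of both libraries, and lower in cKO in all 3 groups, at 88.7 and 39.5 CPM in the low, 95.5 and 62.6 CPM in the middle and 32.5 and 18.1 CPM in the high group. Nhlh1 increased from low to high in both, and its ratio was 0.378, 0.457 and 0.445. Id2 went from 156 to 285 CPM from low to high in WT, but stood at 93.7, 95.9 and 88.3 CPM in cKO, so the ratio went from 0.601 (0.524 to 0.687) to 0.310 (0.271 to 0.353). Tcf4 itself had ratios of 0.583, 0.636 and 0.709, nearest to WT in the most neuronal group.

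Of the named genes, the 15 lower ones kept their direction in all 3 groups, and the 15 higher ones did so except Ebf1 in the low group, at 10.8 and 8.90 CPM. The named genes were chosen by their ratios over these same members, so this agreement was largely set in advance. Pou3f1 stood at 42.6, 47.4 and 34.1 CPM in the WT groups and was higher in cKO in each, with ratios of 1.97, 2.93 and 2.77. Sema5a was highest in the low group of both libraries, and its ratios were 1.92, 3.98 and 3.2. Flrt1 had ratios of 0.333, 0.236 and 0.128. Apbb2 had a low-group ratio of 1.11 (0.689 to 1.78), Luzp2 of 1.27 (0.694 to 2.36) and Gm28050 of 1.32 (0.768 to 2.28). Their UMIs there were few, at 38 and 39, 22 and 26, and 27 and 33 in WT and cKO. In the high group their ratios were 1.82, 2.49 and 2.44. The low-group intervals include 1, reach past 1.5-fold and overlap those of the high group. They therefore cannot show whether these genes differed less in the low group. With the 3 groups given equal weight in each library, the median log2 ratio was 0.43 for the upper-layer list and -0.21 for the S-phase list, while that of the newborn neuron list was -0.06 and that of the migration list 0.08. Without these weights the upper-layer median was 0.46. The score that made the groups holds Neurod2 and Neurod6, both called higher in cKO. Equal weights therefore do not match the members of the 2 libraries for their stage, and the part of stage in these differences was not tested.

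**Figure D4:**
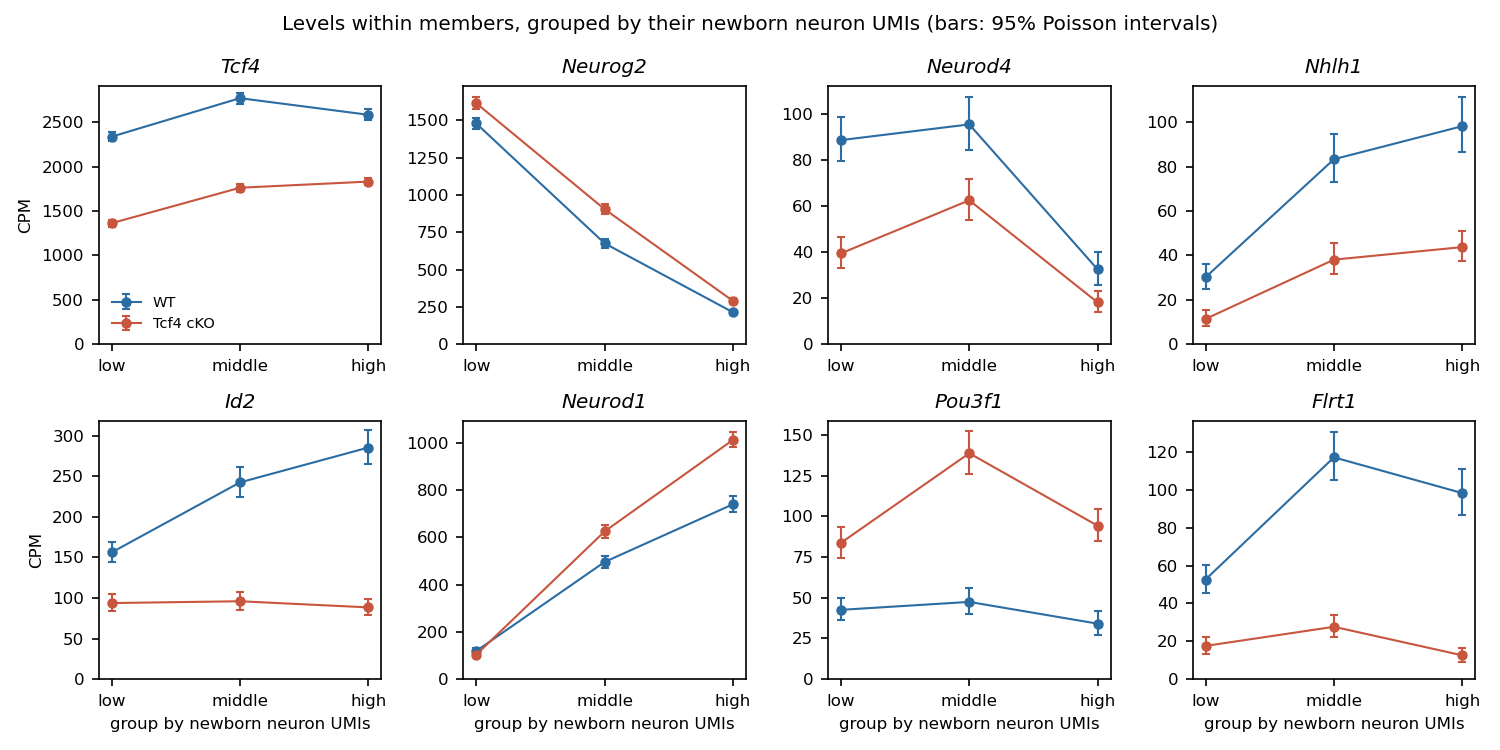
Level in CPM (vertical axis, from 0) of 8 genes in members of the low, middle and high group by newborn neuron UMIs (horizontal axis), WT in blue and Tcf4 cKO in red, with bars for 95% Poisson intervals. Id2 climbs in WT (156 to 285 CPM) and stays level in cKO (93.7 to 88.3 CPM), while Neurod4 and Nhlh1 are lower in cKO in every group.

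Single members often carried transcripts of both ends of the passage. At 3350 UMIs, Neurog2 and Neurod6 were found together in 38.6% (35.4 to 41.9) of WT members and 48.8% (45.9 to 51.6) of cKO members, against 0.261% (0.0710 to 0.666) and 0.414% (0.152 to 0.898) of Gad2 cells. In Gad2 cells Neurog2 had a UMI in 1.11% and 2.28% and Neurod6 in 6.19% and 7.93%, so their joint share there is low from the outset. It does not measure stray Neurod6 in members that hold Neurog2. Neurog2 without Neurod6 was found in 28.7% (25.8 to 31.8) of WT members and 21.7% (19.4 to 24.1) of cKO members. Neurod2 had a UMI in 43.2% of WT and 63.1% of cKO members, 69.4% and 84.0% without thinning, against 2.80% and 5.24% of Gad2 cells, which should lack it. Neurod4 had one in 19.3% (16.8 to 22.1) of WT and 10.8% (9.15 to 12.7) of cKO members, 39.1% and 21.6% without thinning, against 0.195% and 0.0690% of Gad2 cells. Median depths before thinning were 9839 and 7824.5 UMIs in members and 9045 and 7916.5 UMIs in Gad2 cells. Pou3f1 had one in 10.9% of WT and 24.2% of cKO members, 21.5% and 37.8% without thinning, with 14.6% and 13.9% in Gad2 cells, which express it too. Id2 had one in 44.4% (41.1 to 47.8) of WT and 24.8% (22.4 to 27.4) of cKO members, 74.7% and 45.5% without thinning, with 27.4% and 22.1% in Gad2 cells, so that its cKO share lay close to that of Gad2 cells. At 3350 UMIs these transcripts are few per member, so the share of members with a UMI largely follows the level. The shares therefore cannot show whether more or fewer members expressed a gene.

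Cycling Eomes cells, 224 in WT and 182 in cKO, matched the members in direction for the most named genes of the 4 sets. Of the 15 higher named genes 13 had the same direction there, all but Apbb2 and Ebf1, and so had all 15 lower ones, with 9 and 10 of them past 1.5-fold. In Neurod6 cells without Eomes, 1477 and 2271 in number, 14 and 11 had the same direction but only 7 and 2 were past 1.5-fold. In pallial glia all 15 higher genes had the same direction, 10 of them past 1.5-fold, and 11 of the lower ones, with Egr1 alone past it. In Gad2 cells, largely of an origin outside the Emx1 lineage, the numbers were 10 and 12, with Colec12 and BC004004 alone past 1.5-fold. The share of all genes past 1.5-fold was not counted in these sets. Their summed UMIs also differed, at 3804657 and 2885229 in cycling Eomes cells and 17634518 and 21329722 in Neurod6 cells. The counts alone therefore do not show which set is most like the members. Neurod4 was lower in cycling Eomes cells too, at 85.7 and 39.9 CPM, a ratio of 0.465. Pou3f1 was higher there, at 20.2 and 54.1 CPM, and in glia, at 20.04 and 63.5 CPM, but stood at 171 and 190 CPM in Neurod6 cells. The ratio in members was 2.24 times (1.97 to 2.54) that in Neurod6 cells, a Wald interval for counting error. Flrt1 had a ratio of 0.221 in members and in Neurod6 cells, but stood at 9.08 and 9.93 CPM in glia.

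Id2 differed more in Neurod6 cells than in members: in those without Eomes the WT level was 728 CPM and the cKO level 63.0 CPM, a ratio of 0.0865, which was further below 1 than the 0.424 of the members. In cycling Eomes cells its ratio was 0.645 and in Gad2 cells 0.788. Mef2c likewise was higher in every set, with a ratio of 2.50 in members, 3.72 in Neurod6 cells and 2.31 in Gad2 cells, and so was not particular to members. Mcm6 had a ratio of 0.469 in members against 0.622 in cycling Eomes cells and 0.827 in glia, and Ccnd2 of 0.614 against 0.596 and 0.895. Neurod1 was higher in cKO members at a ratio of 1.44, but stood at 256 and 201 CPM in cycling Eomes cells, a ratio of 0.786.

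Colec12 and BC004004 were higher in every set of cells compared. Colec12 (ENSMUSG00000036103), a scavenger receptor gene, lies on mm10 chromosome 18 at 9707595 to 9882644, and Tcf4 on the same chromosome at 69343356 to 69689079. Colec12 had 4 UMIs in WT members and 1013 in cKO members, a ratio of 224 (87.4 to 825). In Gad2 cells it stood at 3.95 and 103 CPM. BC004004 (ENSMUSG00000052712, chromosome 17) stood at 27.7 and 192 CPM in members, a ratio of 6.92 (6.08 to 7.91), and at 32.9 and 150 CPM in Gad2 cells. These 2 genes thus separated the libraries in the members and in cells where Tcf4 itself had a ratio of 0.888. The cause of their difference was not tested.

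**Figure D5:**
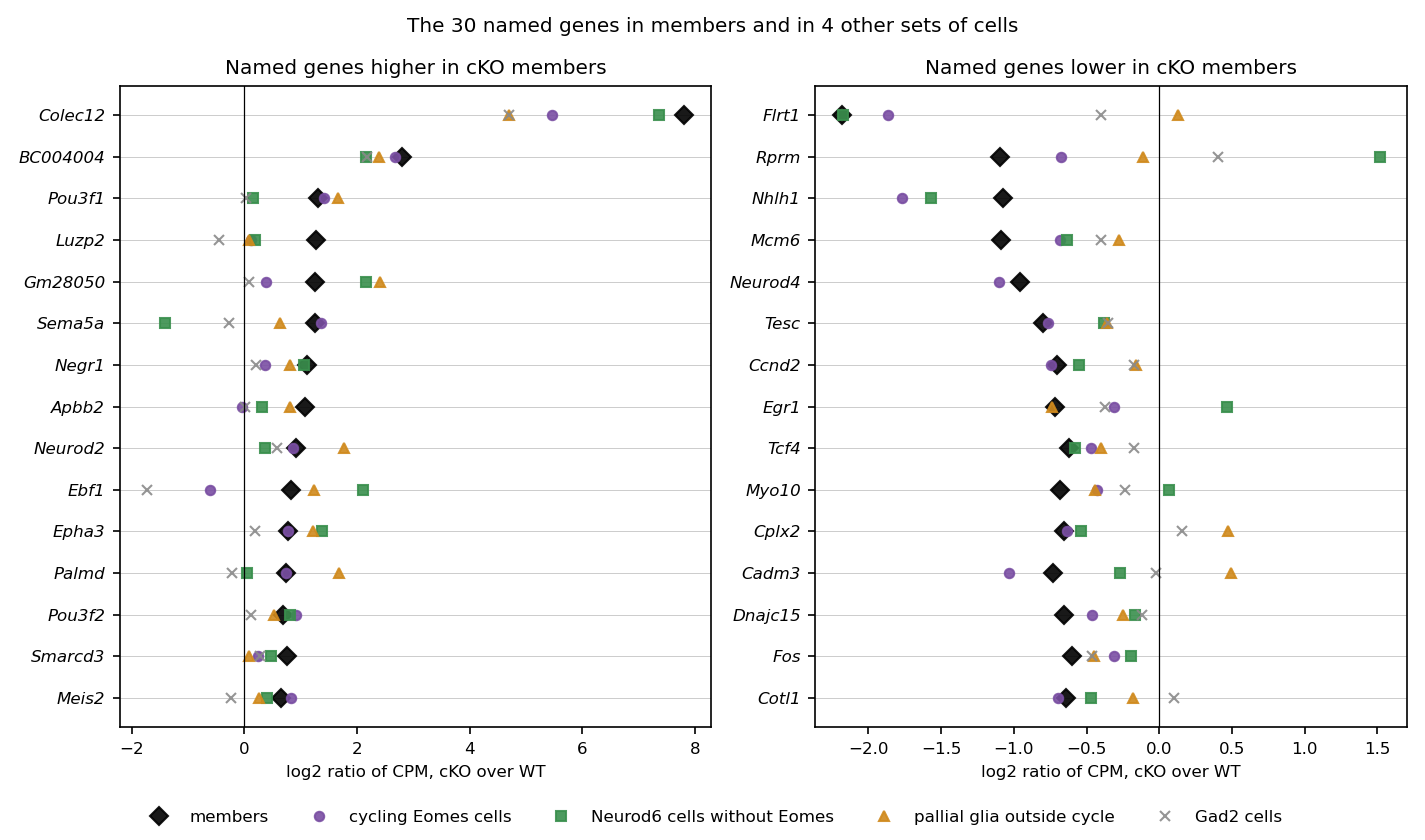
Log2 ratio of CPM, Tcf4 cKO over WT (horizontal axis), of the 30 named genes (rows) in members and in 4 other sets of cells, without points where both levels summed to under 2 CPM. In cycling Eomes cells 13 of the 15 higher and all 15 lower genes keep their side, and Rprm (2.87) and Sema5a (0.379) lie on the opposite side of 0 in Neurod6 cells.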

How the data were processed

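Single cells of the E16.5 corticoseptal boundary were profiled in 1 WT and 1 Tcf4 cKO library with a 10x Genomics 3' kit, per the labels' protocols. Both deposited files are matrices of unnormalized UMI counts, empty droplets included. Per the file headers Cell Ranger 7.1.0 wrote them; version 2.1.1 and the mm10 build stand in the submitters' processing notes. Positions are those of GENCODE vM21, in which 32158 (99.6%) of 32285 gene identifiers were found, and for 78 rows that share a symbol the row with more UMIs was used.

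Cells and members followed the rule stated in the report. UMIs were summed over members and scaled to CPM. Genes with 50 or more UMIs in members were compared, with 5 CPM added for log2 ratios and calls. Named genes had 50 or more CPM in the higher library, a level no lower than in its free RNA, and were neither mitochondrial, ribosomal, haemoglobin nor sex-linked. The 15 highest and 15 lowest by the bound nearest to 1 were taken. Tcf4, the markers and the genes of 14 lists and 8 marker lists were added. The members and lists were chosen with earlier results of these data known. Scrublet, run on each library through scanpy 1.11.5 at an expected rate of 6%, marked 330 WT cells (3.68%) and 547 cKO cells (5.13%) as doublets, which were kept. The calculations were tested on simulated data and run in Python 3.11.15 with numpy 2.4.6, scipy 1.17.1 and pandas 2.3.3. PCR and capture errors beyond counting are not covered by the intervals. Alternatives changed the rule, the depth, the scaling, the pseudocount and the UMI minimum. Some genes of the lists are counted but not reported by name here.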

Additional observations from a re-analysis of the deposited data

Results flagged for a closer look

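Among the 30 named genes, 3 lay on opposite sides of 1 by at least 1.5-fold in members and in another set of cells, with 5 CPM added and 50 or more UMIs in that set, and in each case the difference between the sets was not tested, with 1 library per genotype. Rprm had a ratio of cKO over WT of 0.467 (0.434 to 0.502) in members, from 232 and 108 CPM. In Neurod6 cells without Eomes its ratio was 2.87 (2.67 to 3.08), from 54.4 and 156 CPM.

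Sema5a had a ratio of 2.39 (2.04 to 2.79) in members, from 24.1 and 57.5 CPM. In Neurod6 cells without Eomes it was 0.379 (0.302 to 0.474), from 14.5 and 5.49 CPM. Ebf1, a factor of early-born neurons, had a ratio of 1.77 (1.60 to 1.962) in members, from 61.6 and 109 CPM. In Gad2 cells it was 0.301 (0.271 to 0.334), from 112 and 33.9 CPM.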

How the results depend on the processing

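No paired analysis was possible because each genotype had 1 library. Under 17 alternative settings, of which 1 was chosen after seeing the data, the median over all genes stayed between -0.02 and 0. The difference in member share went from 1.39 to 0.223 points with at least 5 Eomes UMIs and to 2.098 points with at least 2, and lay between those values under the 6 others that change the cells. The Tcf4 log2 ratio of -0.62 was -0.67 with at least 5 Eomes UMIs, -0.69 without members that held 2 or more UMIs of other cell types' markers (red-cell markers left out, the setting added later) and -0.59 with members thinned to 3350 UMIs. The count of 92 higher genes was 226 with 1 CPM added, 26 with 20 CPM added, 61 at a minimum of 200 UMIs, 148 with cells thinned before members were chosen and 209 without members that held other cell types' markers, which left 197 WT and 443 cKO members. The count of 87 lower genes was 264, 25, 145 and 154 under the same settings except the minimum of 200 UMIs. The cause of these shifts was not tested beyond the smaller number of cells or the pseudocount itself. Of the named genes other than Tcf4, 17 kept their call under all 17 settings. Fos kept it in 9, Cadm3, Egr1 and Myo10 in 14, Cotl1, Dnajc15 and Smarcd3 in 15, and Cplx2, Ebf1, Meis2, Pou3f2 and Tesc in 16. The median of the S-phase list lay between -0.60 and -0.20 and that of the upper-layer list between 0.34 and 0.61. The medians of 7 lists crossed 0: newborn neuron, radial glia, proneural, intermediate progenitor, cycle exit, patterning and glycolysis genes. The other lists kept their sign. A depth of 50 UMIs over both libraries left low factors such as Cux2 with wide intervals.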
